A study of Mus musculus with 10 samples.

Results

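Integrins are cell surface receptors made of 1 alpha and 1 beta subunit, and the genes for 10 such subunits are described here in spleen T cells and type 2 conventional dendritic cells (cDC2s). They were chosen by symbol, with earlier results of these data known, so their counts beside the shares over all genes are descriptive. The genes are Itgam, Itgax, Itgal, Itgb2, Itgb1, Itga4, Itgae, Itgb7, Itgav and Itgb3. All 10 were found among the 45706 genes of the table and were followed in all 10 libraries. RNA sequencing gave TPM values, a relative abundance per transcript length whose sum is equal for all libraries. The controls were Cd47f/f mice, with floxed Cd47, and gave 2 T cell libraries. Cd47ΔT mice, whose name denotes deletion of Cd47 in T cells, also gave 2. There were 3 cDC2 libraries of each genotype. In the cDC2 comparison, therefore, it is the T cells of the mouse and not the cDC2s that carry the deletion by name. No source used here gives the Cre line, the ages of the mice or whether replicates came from separate mice. The p-values below therefore reflect the spread among these libraries alone, and that spread may be technical.

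An integrin alpha subunit reaches the surface only with a beta partner, and the pair decides what the cell binds. The beta 2 subunit (Itgb2, CD18) pairs with alpha L (Itgal, CD11a) to form LFA-1, with alpha M (Itgam, CD11b) to form Mac-1, a complement receptor, and with alpha X (Itgax, CD11c). LFA-1 binds ICAM proteins in T cell contacts with dendritic cells, while CD11c and CD11b are the antigens by which dendritic cells and their CD11b-bearing type 2 subset are recognised. Alpha 4 (Itga4) pairs with beta 1 (Itgb1) or beta 7 (Itgb7) and guides lymphocyte traffic, alpha E (Itgae, CD103) pairs with beta 7 and binds E-cadherin, and alpha V (Itgav) pairs with beta 3 (Itgb3) or beta 1 and binds matrix proteins. CD47 was first described as integrin-associated protein, because it was isolated together with the alpha V beta 3 pair.

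Itgam, Itgax and Itgad, the last of which encodes alpha D, another beta 2 partner, lie side by side on the plus strand of chromosome 7 (GRCm38). Itgam (ENSMUSG00000030786) spans 128062640 to 128118491, Itgax (ENSMUSG00000030789) starts 11056 bases further on and spans 128129547 to 128150657, and Itgad starts 3719 bases after the end of Itgax. Itgal (ENSMUSG00000030830) lies upstream on the same chromosome at 127296260 to 127335138. The 250 bases before the RefSeq start of Itgam and of Itgax are shown because these neighbours differed in how far they moved with genotype in cDC2s. They are taken from RefSeq (GRCm38.p6, plus strand), and capitals mark matches to the motifs searched. The RefSeq start of Itgax lies just inside the GENCODE gene whose span is given above, so that window ends within it.
Itgam chr7:128062390-128062639: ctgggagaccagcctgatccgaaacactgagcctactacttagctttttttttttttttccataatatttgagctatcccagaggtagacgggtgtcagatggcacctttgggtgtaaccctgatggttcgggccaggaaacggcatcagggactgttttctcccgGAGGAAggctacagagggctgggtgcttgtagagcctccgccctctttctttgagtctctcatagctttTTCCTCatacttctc
Itgax chr7:128129300-128129549: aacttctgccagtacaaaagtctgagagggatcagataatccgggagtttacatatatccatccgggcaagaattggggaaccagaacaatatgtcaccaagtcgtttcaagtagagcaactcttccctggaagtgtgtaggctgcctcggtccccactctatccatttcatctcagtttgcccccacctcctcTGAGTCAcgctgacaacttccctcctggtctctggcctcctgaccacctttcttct
The patterns GAGGAA, bound by the myeloid factor PU.1, TGANTCA of AP-1 and TGTGGT of RUNX factors, and a composite motif of PU.1 and IRF, were searched on both strands, and matches could overlap. The Itgam window held GAGGAA at -84 to -79 from the RefSeq start and again, as TTCCTC on the minus strand, at -15 to -10, and none of the other patterns. The Itgax window held TGAGTCA at -56 to -50 and none of the others. Over all 32851 promoter windows of this length, 23.3% held GAGGAA, 6.75% TGANTCA, 14% TGTGGT and 2.30% the composite, so these matches are a description of the letters only. Of the 10 genes, 6 had an entry in the RefSeq table (also Itgb1, Itga4, Itgb7 and Itgav). Among those 4, Itgb1 and Itgav held GAGGAA, Itga4 held the TGTGGT pattern and Itgb7 held none.

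T cell and cDC2 libraries were made with different kits, so differences in level between the cell types cannot be told apart from the kit. Each genotype comparison stays within 1 kit. A difference of genotype effects between the cell types is also one between kits. Control T cell libraries had 11514 and 11848 genes at 1 TPM or more, and Cd47ΔT T cell libraries had more, 12446 and 12594. The cDC2 libraries had 11852 to 12146, with overlap. The depth behind each value is unknown. Control cDC2 library 3 stood apart, with Pearson r across genes of 0.929 to 0.937 to the other cDC2 libraries. Cd47 itself read 138 and 233 TPM in control T cells, 40.4 and 51.7 TPM in Cd47ΔT T cells and 135 to 162 TPM in the cDC2 libraries. T cell markers summed to 3747 to 4152 TPM in T cell libraries and to 16 to 24.5 TPM in cDC2 libraries, where Cd3g was at 0. The cDC2 markers summed to 887 to 1291 TPM in cDC2 libraries, with Sirpa at 307 to 493 TPM. The list of cDC1 markers, of the other conventional subset, summed to 992 to 1346 TPM in the same libraries. Its Xcr1, Clec9a and Cadm1 read at most 0.67, 6.2 and 12.3 TPM there. The list sums therefore do not tell the 2 subsets apart.

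Levels of the integrin genes divided by cell type in control mice. In control T cells Itgb7 was the most abundant at 319 ± 29.6 TPM (SD, n = 2), followed by Itgb2 at 243 ± 27.9, Itgal at 146 ± 20.7, Itgb1 at 87.6 ± 25.6 and Itga4 at 81.8 ± 29.5. The ranges of Itgb1 and Itga4 overlapped, as did those of Itgae (29.7 ± 8.27 TPM) and Itgb3 (25.7 ± 4.91 TPM). Itgav stood at 8.89 ± 3.57 TPM, and Itgam and Itgax were last, at 1.66 ± 0.559 and 1.49 ± 0.841 TPM, with overlapping ranges. In control cDC2s the order was Itgb2 at 499.8 ± 14.4 TPM (SD, n = 3), Itgax at 420.0 ± 24.7 and Itga4 at 389 ± 11.1, the latter pair with overlapping ranges. Itgb7 (94.0 ± 10.6 TPM), Itgb1 (91.6 ± 9.27), Itgam (72.9 ± 6.22), Itgav (56.6 ± 9.72) and Itgal (45.3 ± 4.54) followed. Ranges of Itgb7 and Itgb1 overlapped, and so did those of Itgam and Itgav. Itgb3 was low at 7.54 ± 0.344 TPM and Itgae, which marks the other conventional subset, was at or near 0 (0.177 ± 0.264 TPM). In Cd47ΔT cDC2s Itgam stood below Itgav and Itgal, with ranges apart, and only Itgb3 and Itgae were lower. In Cd47ΔT T cells Itgam and Itgax were still last. Cerkl (up to 17.05 TPM) overlaps Itga4 and Haspin (up to 11.2 TPM) overlaps Itgae on the opposite strand, and how strand was handled in counting is unknown here.

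**Figure D1:**
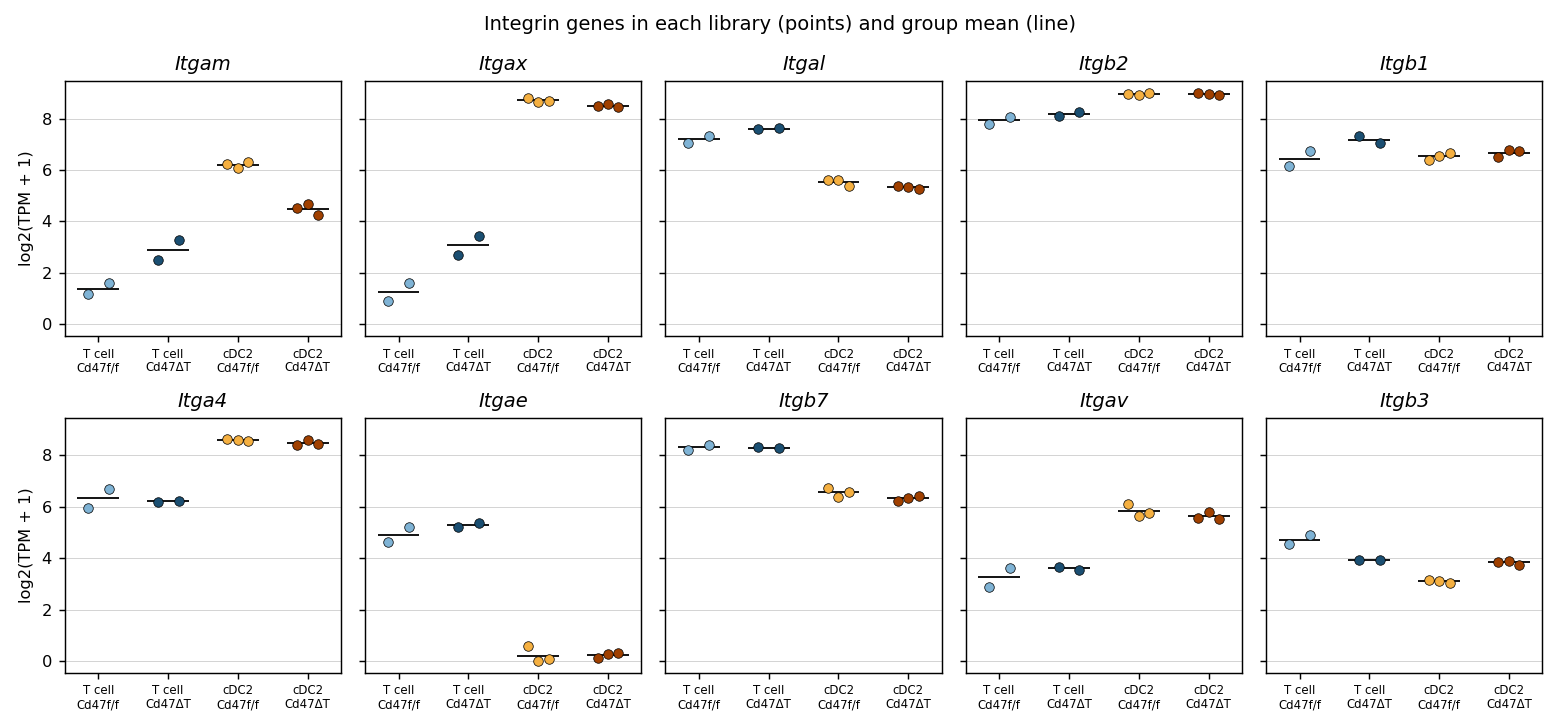
Each panel is 1 integrin gene, the vertical axis is log2(TPM + 1), points are libraries and the line is the group mean on that scale. Itgam of Cd47ΔT cDC2s lies below every control cDC2 library, while Itgam and Itgax of Cd47ΔT T cells lie above both control T cell libraries, and Itgb3 of Cd47ΔT lies below the controls in T cells and above them in cDC2s.

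In cDC2s, Itgam was the integrin gene whose fall in Cd47ΔT mice passed the test. It read 74.9, 65.9 and 77.8 TPM in the control libraries and 22.1, 24.4 and 17.95 TPM in the Cd47ΔT libraries. Every control library was therefore above every Cd47ΔT library, and the mean was 3.39 times lower in Cd47ΔT (72.9 ± 6.22 against 21.5 ± 3.26 TPM, n = 3 each). The log2 fold change, Cd47ΔT over control on log2(TPM + 1), was -1.72 ± 0.14 (SE), with an adjusted p of 0.0120 in limma's test across 12058 genes. Only 31 of those genes had a lower log2 fold change. Of the 9 integrin genes tested in cDC2s this 1 was called at an adjusted p under 0.05, and it was lower, where 0.381% of all genes were called lower and 0.630% called in either direction. Without control library 3 the log2 fold change was -1.68 (adjusted p = 0.0429). Leaving out control library 1 ended the call (adjusted p = 0.0630), as did leaving out Cd47ΔT library 1 (0.0738) or 3 (0.0786), while the log2 fold change stayed between -1.82 and -1.56 over all 14 alternatives, whose adjusted p ran from 0.00554 to 0.0786.

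The other beta 2 partners and the shared beta chain were not called in cDC2s. Itgax read 447, 399.7 and 413 TPM in controls and 356, 382 and 352 TPM in Cd47ΔT. The genotypes did not overlap, and the log2 fold change was -0.21 ± 0.0857 (adjusted p = 0.344). Itgal, the alpha chain of LFA-1, read 47.5, 48.4 and 40.1 against 40.3, 39.95 and 37.2 TPM, with overlapping genotypes (log2 fold change -0.20 ± 0.12, adjusted p = 0.524). Itgb2 (ENSMUSG00000000290, chromosome 10, 77530252 to 77565708, plus strand) ranged from 485 to 514 TPM in controls and from 482 to 515 TPM in Cd47ΔT. Its log2 fold change was -0.0020 ± 0.0780 (adjusted p = 0.994), and its sign turned under other scalings.

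Per transcript length, the 4 alpha genes that share Itgb2 had other proportions in Cd47ΔT cDC2s. Itgam made up 13%, 12.7% and 14.4% of the summed TPM of Itgal, Itgam, Itgax and Itgad in control libraries and 5.26%, 5.44% and 4.38% in Cd47ΔT libraries. Itgax took 76.2% to 77.4% in controls and 84.7% to 85.8% in Cd47ΔT, and the genotypes did not overlap for either gene. Itgad, the smallest contributor, had 0.580% to 1.98% and 0.384% to 0.802%, with overlap. Within a library, Itgam over Itgax was 0.165 to 0.189 in controls and 0.0510 to 0.0638 in Cd47ΔT. The summed alpha genes over Itgb2 were 1.16, 1.07 and 1.05 in controls and 0.814, 0.897 and 0.851 in Cd47ΔT, a difference of -0.24 (exact permutation test, two-sided, p = 0.1, the smallest that 3 against 3 libraries can give).

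**Figure D2:**
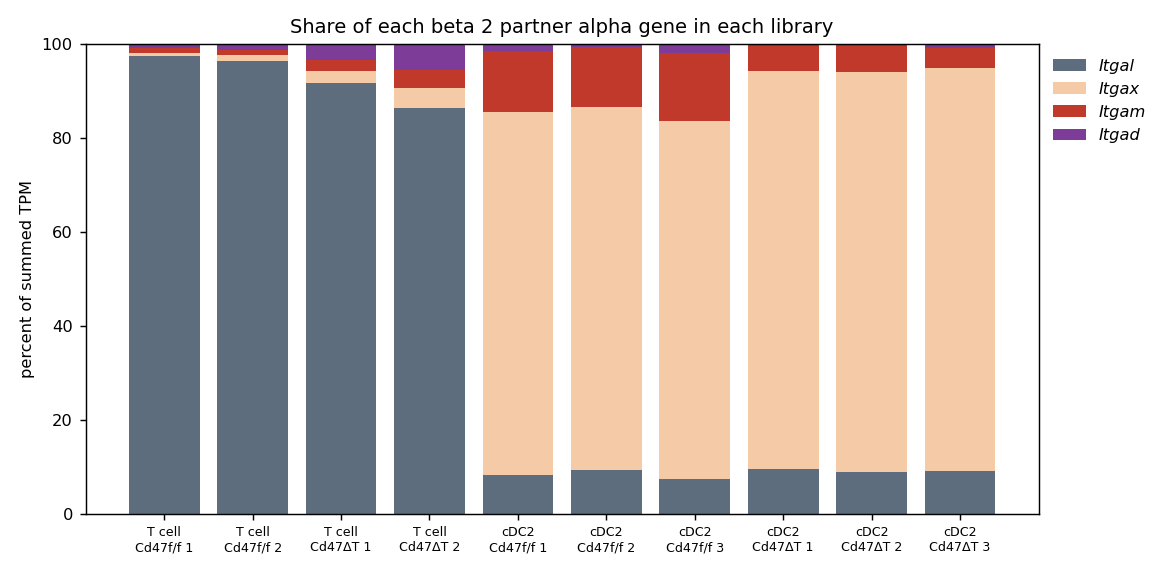
Each bar is 1 library, and its segments are the percent of the summed TPM of Itgal, Itgax, Itgam and Itgad taken by each gene. Itgal fills 86.4% to 97.5% of the T cell bars and Itgax 76.2% to 85.8% of the cDC2 bars, and the Itgam segment is narrower in the 3 Cd47ΔT cDC2 bars.

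Genes that mark cDC2s and other cells were read beside Itgam in these libraries. The 10 cDC2 markers summed to 1154 to 1291 TPM in controls and 887 to 948 TPM in Cd47ΔT, without overlap, and 2 of the 10 were called, both lower. These were Cd209a and Cd4, named after their values were seen. Over all genes tested in cDC2s, 0.381% were called lower. None of the 7 tested monocyte markers was called by limma (2 at an unadjusted p under 0.05). Their list summed to 634 to 942 TPM and 439 to 689 TPM, with overlap, and Ly6c2 was at or below 0.32 TPM in every cDC2 library. The neutrophil markers S100a8, S100a9 and Ly6g, from cells that carry much CD11b, were at 0 in all 6 cDC2 libraries. Red pulp macrophage markers summed to 206 to 333 TPM in controls and 156 to 258 TPM in Cd47ΔT, with 0 of 9 called by limma (2 at an unadjusted p under 0.05). Sums that also did not overlap were those of plasmacytoid dendritic cell markers, at 79.8 to 87.6 TPM in controls and 94.0 to 105 TPM in Cd47ΔT, of plasma cell markers, at 7.69 to 14.4 and 2.77 to 5.45 TPM, and of basophil and mast cell markers, at 2.40 to 4.96 and 1.16 to 1.74 TPM. The 6 other lists (T cell, cDC1, B cell, NK cell, platelet and erythroid) overlapped. In bulk libraries, fewer cells of a type and less RNA per cell cannot be told apart, and the part of cDC2 subsets or other cells in the Itgam difference was not tested.

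Among the other genes compared, Cd209a had the profile closest to Itgam over the 10 libraries. The measure was the root-mean-square difference of log2(TPM + 1) centred per gene, over 9831 named genes, and libraries of 1 cell type share a kit. Cd209a, which encodes a C-type lectin of dendritic cells, differed by 0.401 and had group means of 0.780 and 7.82 TPM in control and Cd47ΔT T cells and 91.2 and 31.01 TPM in control and Cd47ΔT cDC2s. Sirpb1b (0.415), the aryl hydrocarbon receptor gene Ahr (0.430), Siglece (0.442) and Prr5l (0.447) came next. Itgax, the chromosomal neighbour of Itgam, came at place 3420 with a difference of 1.70, and Itgad at place 3202 with 1.67. The measure includes the gap between the cell types, and so the kit. In controls that gap was 1.49 against 420 TPM for Itgax and 1.66 against 72.9 TPM for Itgam. These places are therefore not a measure of the genotype difference alone.

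The beta 1, beta 7 and alpha V genes did not pass the test in cDC2s, and neither did Itga4. Itga4 (ENSMUSG00000027009, chromosome 2, 79255426 to 79333123, plus strand) read 400, 389 and 378 TPM in controls and 334, 386 and 351 TPM in Cd47ΔT (log2 fold change -0.13 ± 0.0877). Itgb1 (ENSMUSG00000025809, chromosome 8, 128685654 to 128733200, plus strand) read 82.2, 91.9 and 101 against 89.0, 109 and 106 TPM (0.14 ± 0.12). The genotypes overlapped for both genes. Itgb7 (ENSMUSG00000001281, chromosome 15, 102215995 to 102231944, minus strand) read 104, 82.9 and 95.2 against 73.8, 79.6 and 84.9 TPM (-0.24 ± 0.12). Itgav (ENSMUSG00000027087, chromosome 2, 83724397 to 83806916, plus strand) read 67.5, 48.9 and 53.3 against 46.5, 55.2 and 44.8 TPM (-0.20 ± 0.15). These also overlapped, and adjusted p for the 4 genes ran from 0.439 (Itgb7) to 0.674 (Itgb1). Itgae (ENSMUSG00000005947, chromosome 11, 73090583 to 73147446, plus strand) was at 0.48, 0 and 0.05 TPM in controls and at 0.09, 0.22 and 0.24 TPM in Cd47ΔT, and did not reach the level for testing.

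Itgb3 (ENSMUSG00000020689, chromosome 11, 104608000 to 104670476, plus strand), the beta chain of the pair with which CD47 was isolated, was on opposite sides of its controls in the cell types. In cDC2s it read 7.83, 7.63 and 7.16 TPM in controls and 13.5, 14 and 12.5 TPM in Cd47ΔT. The genotypes did not overlap, with a log2 fold change of 0.75 ± 0.16 that did not pass the test (adjusted p = 0.111). In T cells Itgb3 read 22.2 and 29.1 TPM in controls and 14.4 and 14.2 TPM in Cd47ΔT, again without overlap (-0.79 ± 0.19, adjusted p = 0.0553). Neither difference was called here. The T cell one was called in 6 of 12 alternatives (lowest adjusted p 0.00145, with the replicate number as a block). Among those 6 were the fits without control library 1 (-0.98) or 2 (-0.60). The cDC2 one was called in 1 of 14 (adjusted p from 0.0458 to 0.282). The difference between the T cell and cDC2 effects was called. The interaction of cell type and genotype was -1.53 ± 0.26 (T cell effect minus cDC2 effect) with an adjusted p of 0.00412, and it was called in all 17 alternatives (adjusted p from 0.00111 to 0.0406). Without control cDC2 library 3 it was -1.50 (adjusted p = 0.00924).

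The alpha partner of Itgb3 did not follow it. In cDC2s, Itgav exceeded Itgb3 by 6.41 to 8.62 times in control libraries and by 3.45 to 3.94 times in Cd47ΔT libraries. In T cells Itgb3 exceeded Itgav in every library, and Itgav over Itgb3 was 0.287 and 0.392 in controls and 0.801 and 0.754 in Cd47ΔT. The ratio thus fell outside the control range in both cell types, on opposite sides. Itga2b, which encodes the other alpha partner of beta 3 and is a platelet gene, read 0.92 and 3.07 TPM in Cd47ΔT T cells, 0.40 and 0.94 TPM in control T cells and 0 to 2.39 TPM in cDC2s. The platelet markers Pf4 and Ppbp were at or below 0.08 TPM in all 10 libraries.

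In T cells, Itgam and Itgax were the 2 of the 10 integrin genes called, both higher in Cd47ΔT, from low levels. Of the 12453 genes tested there, 9.37% were called, 8.50% higher and 0.875% lower, so 2 of 10 higher is to be read against a large background. Itgam read 1.26 and 2.05 TPM in controls and 4.67 and 8.73 TPM in Cd47ΔT (log2 fold change 1.5 ± 0.33, adjusted p = 0.0408). Itgax read 0.89 and 2.08 TPM in controls and 5.48 and 9.92 TPM in Cd47ΔT (1.80 ± 0.36, adjusted p = 0.0311). For both, library 2 of each genotype was the higher one and the genotypes did not overlap. Itgax, at 0.89 TPM in 1 control library, reached the test only with the help of the Cd47ΔT libraries, as did 1216 of the 12453 genes (9.76%) and 398 of the 1167 called. The Itgam call ended without control library 1 (adjusted p = 0.109), without Cd47ΔT library 2 (0.107), with a pseudocount of 5 (0.0503) and with no filter (0.156), over a range from 3.33e-07 to 0.156. The Itgax call ended without control library 1 (0.0846) and with no filter (0.137), over a range from 3.61e-10 to 0.137.

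Markers of other cells were higher in the same libraries. Over all genes tested in T cells, 8.50% were called higher and 0.875% lower. Of the markers tested in T cells, limma called 9 of 9 of red pulp macrophages, 8 of 10 of monocytes, 6 of 6 of B cells, 5 of 6 of cDC1s, 5 of 6 of plasma cells and 5 of 8 of NK cells, all higher in Cd47ΔT. Of the cDC2 markers, 4 of 6 were higher and Cd4, also a T cell gene, was lower, and the list summed to 179 and 201 TPM in controls and 148 and 119 TPM in Cd47ΔT. Also higher were 3 of 8 plasmacytoid dendritic cell, 4 of 7 basophil and mast cell, 2 of 4 erythroid and 1 of 3 neutrophil markers. No platelet marker reached the level for testing. Among the called markers, 5 of 6 of B cells, 4 of 5 of cDC1s, 3 of 5 of plasma cells and 2 of 9 of macrophages would not have reached the test on the control libraries alone. The same held for 2 of 8 of monocytes, 2 of 5 of NK cells, 2 of 5 of cDC2s and 2 of 4 of basophils and mast cells. Counts for these lists therefore lean in part on genes that the Cd47ΔT libraries brought into the test. Macrophage markers summed to 24.8 and 31.8 TPM in controls and to 181 and 284 TPM in Cd47ΔT, monocyte markers to 797 and 958 against 2116 and 2201 TPM, and neutrophil markers to 1.92 and 5.24 against 23.8 and 86.5 TPM. Ly6c2, which some T cells also express, made up most of the monocyte sum, and Ly6g was at 0. Cd47ΔT library 2 was highest for these 3 sums, as it was for Itgam, Itgax and Itgad. None of the 8 T cell markers was called (1 at an unadjusted p under 0.05), and their sum was 4038 and 4102 TPM against 4152 and 3747 TPM. The part of other cells in the integrin values was not tested.

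**Figure D3:**
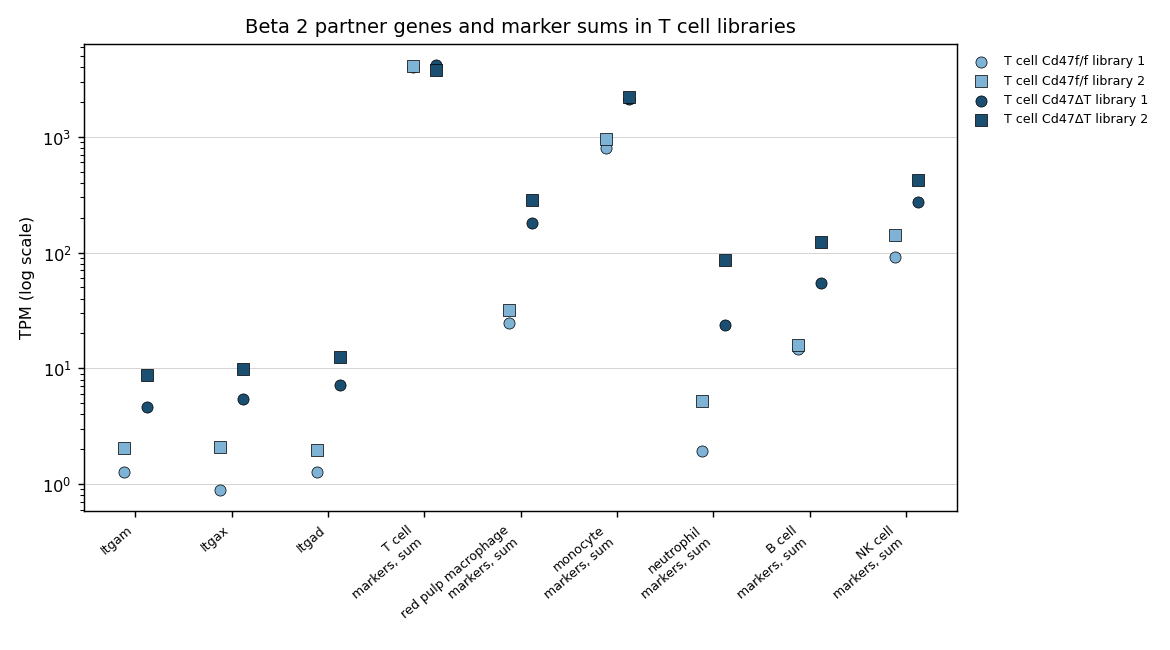
TPM on a log scale of Itgam, Itgax and Itgad and the summed TPM of 6 marker lists in the 4 T cell libraries, with circles for library 1 and squares for library 2 of each genotype. Sums for macrophage, monocyte, neutrophil, B cell and NK cell markers are higher in both Cd47ΔT libraries, and the T cell sum stays between 3747 and 4152 TPM.

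The integrins that T cells express at higher level did not pass the test with all libraries. Itgal read 131 and 160 TPM in controls and 190 and 197 TPM in Cd47ΔT (log2 fold change 0.41 ± 0.13, adjusted p = 0.121). Itgb1, which is high on effector and memory T cells, read 69.5 and 106 against 159 and 130 TPM (0.74 ± 0.22, adjusted p = 0.0981). Itgb2 read 223 and 263 against 275 and 304 TPM (0.25 ± 0.12, adjusted p = 0.318), and Itgae 23.9 and 35.6 against 36.2 and 40.5 TPM (0.38 ± 0.21, adjusted p = 0.402). For these 4 genes both Cd47ΔT libraries were above both control libraries. The values for Itgb7 were 298 and 340 against 317 and 311 TPM (-0.019 ± 0.11), for Itga4 60.9 and 103 against 72.1 and 74.4 TPM (-0.11 ± 0.24) and for Itgav 6.36 and 11.4 against 11.5 and 10.7 TPM (0.34 ± 0.28). These 3 overlapped between genotypes, and their signs turned when 1 control library was left out. Calls also depended on single libraries. Without control library 1 the called integrin genes were Itga4 (-0.48, adjusted p = 0.0482) and Itgb3, both lower, and none higher. Without control library 2, Itgal (0.56, 0.0194), Itgb1 (1.04, 0.0197) and Itgae (0.66, 0.0359) were called higher beside Itgam and Itgax, and Itgb1 was also called without Cd47ΔT library 2 (0.88, 0.0197). In all, the genotypes did not overlap for 7 of 10 integrin genes in T cells, where 48.9% of tested genes did not, and for 3 of 9 in cDC2s, where 19.9% did not. The median log2 fold change of the integrin genes was 0.36 in T cells against 0.10 over all genes tested, and -0.20 in cDC2s against -0.073.

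Ratios between partner genes were also taken within T cell libraries. The summed beta 2 partners over Itgb2 were 0.602 and 0.633 in controls and 0.754 and 0.751 in Cd47ΔT. Itgae over Itgb7 was 0.0802 and 0.105 in controls and 0.114 and 0.130 in Cd47ΔT. Neither ratio overlapped between genotypes, and the two-sided exact permutation p was 0.333 for each, the smallest that 2 against 2 libraries allow. Itgb7 over Itgb1, the balance of the beta chains that alpha 4 can join, was 4.29 and 3.21 in controls and 1.99 and 2.39 in Cd47ΔT. In cDC2s Itgae over Itgb7 was at most 0.00462 (exact permutation p = 0.8).

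**Figure D4:**
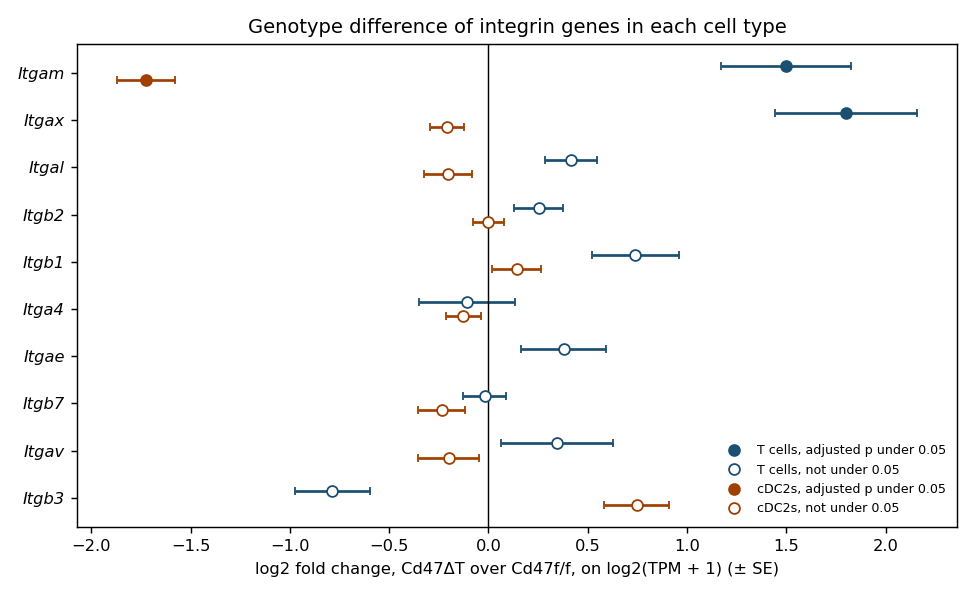
Log2 fold change of Cd47ΔT over Cd47f/f on log2(TPM + 1), with its standard error, for each integrin gene in T cells and in cDC2s, filled where the adjusted p is under 0.05. Itgam is called on opposite sides of 0 (1.5 in T cells and -1.72 in cDC2s), Itgax is called in T cells, and Itgb3 lies on opposite sides without a call in either.

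Whether the genotype effect differed between the cell types was tested as an interaction in 1 fit. It was called for 3 of the 9 integrin genes tested, where 5.70% of 10650 genes were called (5.40% higher and 0.300% lower in T cells relative to cDC2s). Beside Itgb3, these were Itgam, with a T cell effect minus cDC2 effect of 3.22 ± 0.35 (adjusted p = 0.000306), and Itgax, with 2.01 ± 0.32 (adjusted p = 0.00345). Without control cDC2 library 3 they were 3.18 (adjusted p = 0.00122) and 2.02 (0.00855). In T cells both genes were low, and many of the markers of myeloid, B, plasma and NK cells given above were also higher. The part of those cells in the interaction was not tested. Cell type and kit go together here, so a difference of effects between cell types cannot be told apart from one between kits. Itgax reached the T cell filter only with the help of the Cd47ΔT libraries, so the count of 3 leans in part on them. With a filter of 5 TPM Itgam was not tested for the interaction. Without control T cell library 2, Itgal was called too (0.76, adjusted p = 0.0471). With all libraries the remaining 6 were not called, with adjusted p from 0.0989 (Itgal) to 0.988 (Itga4).

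Other integrin subunits were read from a list of 16. In T cells 9 were tested, of which 3 were higher and 1 lower, where 8.50% of all genes were called higher and 0.875% lower, with a median log2 fold change of 0.72 against 0.10 over all genes tested. Of the 9, 4 would not have reached the test on the control libraries alone, Itgb5 and Itgb8 among them, so neither the count nor the median is support for a direction of the list. Itgad (alpha D, chromosome 7, 128154376 to 128223816, plus strand) read 1.27 and 1.96 TPM in controls and 7.12 and 12.4 TPM in Cd47ΔT (log2 fold change 2.01 ± 0.31, adjusted p = 0.0155). Without control library 1 its adjusted p was 0.0559. Itgb5 read 0.37 and 0.55 against 2.56 and 4.67 TPM (1.62 ± 0.29, adjusted p = 0.0243), a call that also ended without control library 1 (0.0785). Itgb8, whose product pairs with alpha V and activates latent TGF-beta, read 0.17 and 0.25 against 2.67 and 1.61 TPM (1.36 ± 0.26, adjusted p = 0.0288), and its call ended without either control library (0.0904 and 0.0555). The lower gene, named after its value was seen, was Itga6, a laminin receptor chain, at 64.6 and 94.7 against 42.0 and 43.5 TPM (-0.86 ± 0.20, adjusted p = 0.0484). In T cells, Itgb5 and Itgb8 were not tested when either Cd47ΔT library was left out, or with a filter of 5 TPM. In cDC2s none of 7 tested was called by limma (1 at an unadjusted p under 0.05). That one was Itgad, at 8.38, 3.0 and 10.7 TPM in controls and 1.61, 2.11 and 3.29 TPM in Cd47ΔT, with overlap (-1.22 ± 0.43, adjusted p = 0.270). Cox6a2, at up to 4.19 TPM, overlaps Itgad on the opposite strand.

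Proteins inside the cell switch integrins on and tie them to actin. Of 34 such genes, Cd47 included, 28 were tested in T cells, with 2 higher and 2 lower. Over all genes 8.50% were called higher and 0.875% lower, so 2 of 28 higher is near the background. Of the 2 lower genes 1 was Cd47, whose deletion is the design, so its call is no result about the list. The median of the 28 genes was 0.086 against 0.10 over all genes tested. Skap2, an adaptor of myeloid integrin signalling, read 7.40 and 8.36 TPM in controls and 16.7 and 15.7 TPM in Cd47ΔT (log2 fold change 0.95 ± 0.18, adjusted p = 0.0286), and its call ended without Cd47ΔT library 1 (0.264) or 2 (0.173). Zyx, the focal adhesion protein zyxin, named after its value was seen, read 121 and 126 against 172 and 205 TPM (0.60 ± 0.13, adjusted p = 0.0366). Actn1, which cross-links actin and binds beta tails, read 187 and 230 against 105 and 122 TPM (-0.87 ± 0.15, adjusted p = 0.0193), and Cd47 was the other lower gene. In cDC2s none of 28 was called by limma (5 at an unadjusted p under 0.05), with a median of -0.087 against -0.073.

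Ligands of these integrins were the last group. Of 26 genes 14 were tested in T cells, and 4 were higher and none lower, where 8.50% and 0.875% of all genes were. The median was 0.48 against 0.10 over all genes tested. Of the 14, 5 would not have reached the test on the control libraries alone, Spp1, C3 and Fn1 among them, so neither the count nor the median is support for a direction of the list. Vcam1, the ligand of alpha 4 beta 1 and also one of the macrophage markers, read 2.80 and 4.32 TPM in controls and 25.4 and 40.2 TPM in Cd47ΔT (log2 fold change 2.88 ± 0.29, adjusted p = 0.00559). Spp1, osteopontin, which binds alpha V integrins, read 0.23 and 0.12 against 8.76 and 3.33 TPM (2.47 ± 0.40, adjusted p = 0.0175). C3, the complement protein whose fragment iC3b binds Mac-1, read 0.50 and 0.75 against 3.14 and 4.54 TPM (1.56 ± 0.25, adjusted p = 0.0179). Both of these calls ended without control library 1 (log2 fold change 2.54 and 1.45). That of C3 also ended in 1 fit of all libraries (adjusted p = 0.0512). Spp1 and C3 were not tested when either Cd47ΔT library was left out, or with a filter of 5 TPM. The fourth, named after its value was seen, was the fibronectin gene Fn1, also one of the monocyte markers, at 0.69 and 1.48 against 4.28 and 7.38 TPM (1.70 ± 0.32, adjusted p = 0.0279). In cDC2s none of 11 was called by limma (2 at an unadjusted p under 0.05), with a median of -0.015 against -0.073.

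With no filter on low values, the T cell calls of Itgam, Itgax, Itgad, Itgb5, Itgb8, Cd47, Actn1, Skap2, Vcam1, Spp1 and C3 ended (adjusted p from 0.0730 to 0.156). Itga6, Zyx and Fn1 were not run under the alternatives. Over all genes, limma called 1058 higher and 109 lower in T cells, 30 higher and 46 lower in cDC2s, and 575 and 32 for the interaction. Median-of-ratios scaling gave 946 and 264 in T cells, 40 and 35 in cDC2s and 417 and 77 for the interaction. Scaling to protein-coding genes gave 35 higher and 31 lower in cDC2s. Median-of-ratios scaling moved the median log2 fold change in T cells from 0.10 to -0.041, and for the interaction from 0.19 to -0.026. Under it Itgam and Itgax were still called higher in T cells (1.39 and 1.70), Itgam lower in cDC2s (-1.65), and Itgb3 was called lower in T cells (-0.93, adjusted p = 0.0142).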

How the data were processed

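RNA of spleen T cells (4 libraries) and cDC2s (6 libraries) was sequenced. Per the labels' protocols, the kit was TruSeq stranded mRNA for T cells and SMART-seq stranded for cDC2s. The authors deposited TPM per Ensembl gene, which keep no depth, so no interval for counting error is given. STAR, RSEM, DESeq2 and GRCm38 are named in the submitters' processing notes, without versions. Of 45706 identifiers, 45143 (98.8%) matched GENCODE M21 (GRCm38), which gave symbols and positions.

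Within each cell type, genes that reached 1 TPM in 2 T cell or 3 cDC2 libraries or more entered the test on log2(TPM + 1), a scale that understates changes of low genes, with limma 3.58.1 (variance trend, genotype only) in R 4.3.3. The interaction was tested over genes that passed both filters. Benjamini-Hochberg adjustment ran over all genes tested, called under 0.05. Ratios used exact permutation over libraries. The members, gene lists, marker lists and tests were chosen with earlier results of these data known. Named were all members, up to 3 called genes with the smallest p per list and genotype comparison, and the 5 profiles closest to Itgam. The fit was tested on simulated data. Alternatives were pseudocounts of 0.1 and 5, no filter, a filter of 5 TPM, 2 other scalings, a replicate block, 1 fit of all libraries and leaving out each library. Tables and plots used Python 3.11.15 (numpy 2.4.6, pandas 2.3.3, matplotlib 3.10.9).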

Additional observations from a re-analysis of the deposited data

Results flagged for a closer look

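For 3 integrin genes the genotype effect differed between T cells and cDC2s by limma's interaction test. The T cell effect minus the cDC2 effect, on the log2(TPM + 1) scale, was 3.22 for Itgam (adjusted p = 0.000306), 2.01 for Itgax (adjusted p = 0.00345) and -1.53 for Itgb3 (adjusted p = 0.00412). For Itgam and Itgb3 every Cd47ΔT library lay on one side of the controls in T cells and on the other side in cDC2s. Of all genes tested, 48.9% in T cells and 19.9% in cDC2s did not overlap between genotypes. The share that lay on opposite sides in the cell types was not counted. In T cells, many markers of myeloid cells, and also of B, plasma and NK cells, were higher along with Itgam and Itgax. The part of those cells was not tested. The cell types were made with different kits, so the difference between cell types cannot be told apart from one between kits. Itgax reached the T cell filter only with the help of the Cd47ΔT libraries. With a filter of 5 TPM Itgam was not tested.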

How the results depend on the processing

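Counts of called genes moved with several choices. With no filter limma called 15 genes in T cells and 6 in cDC2s, against 1167 and 76. A filter of 5 TPM gave 758 in T cells and 395 for the interaction, against 607. With that filter Itgam was tested neither in T cells nor for the interaction, where 2 integrin genes were called. One fit of all libraries gave 171 in cDC2s. Leaving out 1 library gave 738 to 1890 genes in T cells, 0 to 15 in cDC2s (with 0, 1254 to 1354 genes had an unadjusted p under 0.05) and 214 to 613 for the interaction. With 1 T cell library left in a genotype, it is assumed to vary like the other genotype. The number of integrin genes called in T cells was 2, and was 1 with a pseudocount of 5, 0 unfiltered, 1 at a minimum of 5 TPM, 4 in 1 fit of all libraries and 2 to 6 when 1 library was left out (without control library 1, 2 lower and 0 higher). With no filter, 3582 genes in T cells had an unadjusted p under 0.05. In cDC2s it was 1, and was 2 in 1 fit of all libraries, where Itgb3 was added (adjusted p = 0.0458), and 0 to 1 when 1 library was left out. For the interaction it was 3, and 3 to 4 when 1 library was left out.

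With the replicate number as a block, 2296 genes and 5 integrin genes were called in T cells, and 4 genes and 0 integrin genes in cDC2s (Itgam adjusted p = 0.0646; 1581 genes at an unadjusted p under 0.05). The labels do not say that the numbers pair libraries. Deviations of same-numbered libraries correlated across genes at 0.190 in T cells and at -0.044, 0.059 and 0.119 in cDC2s, and not every cDC2 library correlated best with its own number.

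Signs turned only for integrin genes that were not called, and the cause was not tested. In cDC2s Itgb2 was 0.079 with median-of-ratios and 0.065 with protein-coding scaling, and -0.025 to 0.023 when 1 library was left out (0.018 without control and 0.023 without Cd47ΔT library 3). In T cells, when 1 library was left out, Itgav ran from -0.034 to 0.72, Itga4 from -0.48 to 0.26 and Itgb7 from -0.11 to 0.075. For the interaction, Itga4 was -0.21 with median-of-ratios and -0.087 with protein-coding scaling and -0.35 to 0.39 when 1 library was left out (-0.0049 without Cd47ΔT T cell library 2, -0.0027 and -0.029 without cDC2 library 1 of control and Cd47ΔT mice), and Itgb7 was -0.011 with median-of-ratios scaling. The difference of Itgae over Itgb7 in cDC2s, Cd47ΔT minus control, ran from -0.000302 to 0.00201 when 1 library was left out (-4.0e-05 without control library 3). What TPM cannot show is how many reads lie behind the low values of Itgam and Itgax in T cells and of Itgae in cDC2s.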
